A study of Aspergillus nidulans with 9 samples.

Results

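The Δ*veA*-labelled libraries were set directly against those labelled Δ*laeA* in vegetatively growing cells (Vege) of Aspergillus nidulans, to find what sets the mutants apart. The comparison holds the 6 mutant libraries of the 9 in the series, 3 per mutant, chosen by their labels. All genes were kept, and 9482 of the 10957 with an identifier of their own had enough counts to be tested. WT was the strain RDIT9.32, and its 3 libraries entered the shared model but not the contrast. The Δ*veA* strain RJW112.2 carries Δ*veA*::*argB*, and the Δ*laeA* strain RJW41.A carries *methG1*, Δ*laeA*::*methG* and *veA*. All strains grew for 24 h at 37 °C in liquid minimal medium with 1% glucose, shaken at 220 rpm in the dark. Each genotype is 1 strain, so a difference between the mutants at another locus, or an effect of a marker gene, cannot be told apart from the deletions themselves. Neither the labels nor the methods state separate cultures for the libraries of a strain, so the p-values measure only the spread between these libraries, which may be technical.

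VeA is a velvet-domain protein that enters the nucleus in the dark, and LaeA is a nuclear protein with a methyltransferase-like fold. In *A. nidulans* they act together with VelB in the velvet complex, which joins the light response to sexual fruiting, conidiation and secondary metabolism. Many genes for secondary metabolites of this fungus lie next to each other in clusters, and both proteins are known as regulators of such clusters.

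Reads counted on genes ranged from 17651082 to 35482680 per mutant library. Levels are given as CPM, counts scaled to a common library total, after TMM scaling, which corrects the library totals for differences in composition, and no level was divided by gene length. The log2 difference is always Δ*veA* minus Δ*laeA*. A gene was called when its p after Benjamini-Hochberg adjustment over all genes tested was under 0.05 in the quasi-likelihood test of edgeR and its difference was more than 2-fold.

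The targeted genes check the labels. The level of *laeA* was 4.96, 6.61 and 5.60 CPM in the Δ*laeA* libraries and 50.5, 41.2 and 43.7 CPM in the Δ*veA*-labelled libraries. All Δ*laeA* libraries lay below every other library for this gene, as their label says. The level of *veA*, in contrast, was 815, 785 and 773 CPM in the Δ*veA*-labelled libraries, against 67.8, 71.1 and 72.7 CPM in Δ*laeA* and 116, 108 and 108 CPM in WT. Reads on *veA* were therefore 11.2-fold more frequent in the Δ*veA*-labelled libraries than in Δ*laeA*, with a log2 difference of 3.49 ± 0.05 (SE), which goes against their label. Whether these reads come from the deleted part of the gene could not be read from counts per gene, and every direction given for these libraries rests on the label.

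The marker genes of the constructs differed as well. *argB*, which encodes ornithine carbamoyltransferase and replaced *veA*, was at 454, 465 and 442 CPM in the Δ*veA*-labelled libraries and at 106, 100.4 and 110 CPM in Δ*laeA*. These groups lay far apart, with a log2 difference of 2.11 ± 0.05 (SE). *metG*, a methionine synthesis gene, was at 59.2, 49.5 and 56.3 CPM in the Δ*veA*-labelled libraries and at 105, 108 and 111 CPM in Δ*laeA*. The libraries did not overlap, but the difference of -0.97 on the log2 scale was just under 2-fold and was not called, and without Δ*veA* replicate 1 it was called at -1.06. *pyroA*, a gene of pyridoxine synthesis used as a marker in this fungus, was 2.72-fold higher in the Δ*veA*-labelled libraries.

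The genes beside *laeA* were also higher in the Δ*veA*-labelled libraries, and were singled out after their values were seen. In the order of the RefSeq annotation, AN0808, *laeA*, AN0806 and AN0805 formed a run of 4 called genes, with log2 differences of 1.01, 2.97, 1.36 and 1.36. AN0806 was at 26.2, 26.5 and 26.5 CPM in the Δ*veA*-labelled libraries and at 9.86, 10.04 and 10.9 CPM in Δ*laeA*, where WT had 10.4, 12.9 and 12.6 CPM. For AN0806 the Δ*veA*-labelled libraries stood apart, while Δ*laeA* and WT overlapped.

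Between the mutants 1740 genes were called, or 18.4% of the genes tested. Of these, 639 (6.74% of the genes tested) were higher in the Δ*veA*-labelled libraries and 1101 (11.6%) were higher in Δ*laeA*. The median log2 difference of the called genes was 1.57 on the Δ*veA* side and -1.74 on the Δ*laeA* side, against 0.03 over all genes tested. Differences over 4-fold were seen for 232 called genes higher in the Δ*veA*-labelled libraries and 450 higher in Δ*laeA*, and differences over 32-fold for 45 and 62. The libraries of the mutants did not overlap for 1685 of the called genes, beside 71.3% of all genes tested that did not overlap in either direction. At the adjusted p alone 6646 genes passed (70.1%), 3464 of them higher in the Δ*veA*-labelled libraries (36.5%) and 3182 higher in Δ*laeA* (33.6%).

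Genes with few reads were called more often than abundant ones. The share called was 35.6% among genes with a mean under 1 CPM in the mutants, 13.1% from 10 to 100 CPM and 11.5% at 1000 CPM or more. A gene could pass the count filter through 1 group alone, which favours genes that differ where the mean is low. How much of the higher share this makes up was not tested. Genes called higher in Δ*laeA* took 13.3% to 13.4% of all counts in the Δ*laeA* libraries and 4.60% to 4.65% in the Δ*veA*-labelled libraries. Genes called higher in the Δ*veA*-labelled libraries took 5.03% to 5.13% of the counts in these libraries and 1.39% to 1.43% in Δ*laeA*. The Δ*laeA* side was thus the larger in number of genes and in share of reads. In WT, genes called higher in Δ*laeA* took 13.9% to 14.0% of the counts, close to their share in Δ*laeA*. Genes called higher in the Δ*veA*-labelled libraries took 2.62% to 2.64% in WT, between the mutants.

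**Figure D1:**
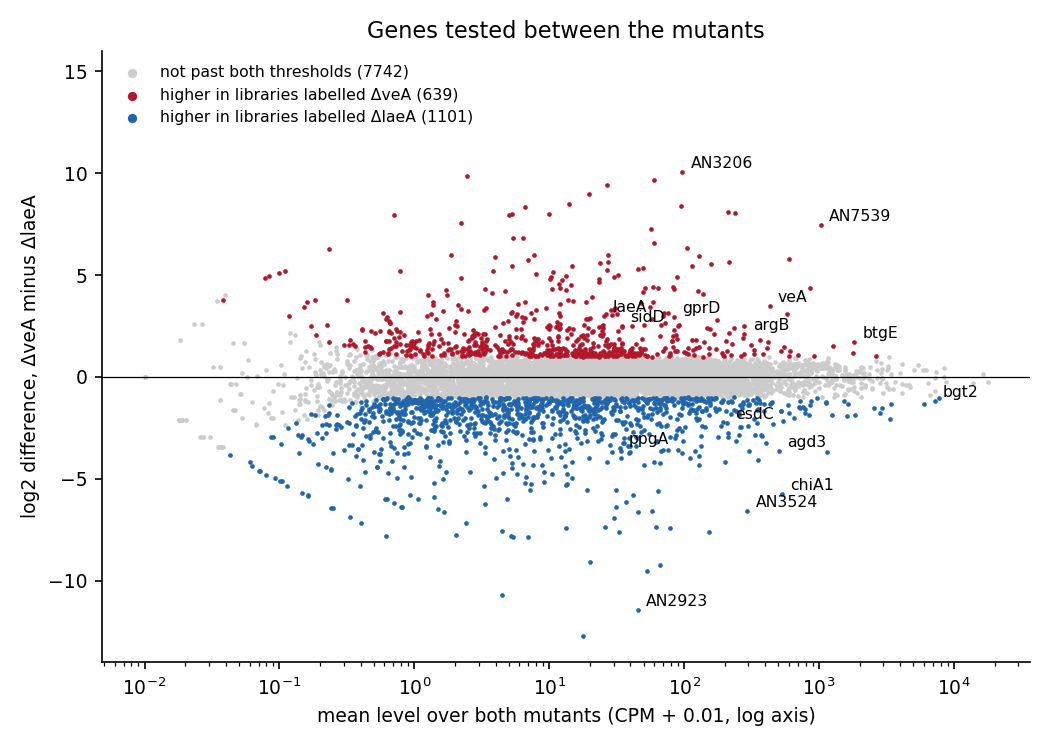
Each point is 1 of the 9482 genes tested, with its mean level over both mutants on a log axis (CPM plus 0.01) and its log2 difference, Δ*veA* minus Δ*laeA*. The 639 genes called higher in the Δ*veA*-labelled libraries (red) lie above 1 and the 1101 called higher in Δ*laeA* (blue) below -1, and genes of few reads spread most.

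The genes with the largest differences on the Δ*veA* side had no symbol in the annotation used. AN3206 was at 194, 192 and 196 CPM in the Δ*veA*-labelled libraries and at 0.186, 0.238 and 0.108 CPM in Δ*laeA*. The latter rests on 10 counts in all, and the ratio of the summed normalized counts was 1082, with a 95% exact interval of 588 to 2260 that covers counting error only. AN5046 and AN7773 had 8 and 4 counts in all in Δ*laeA*, with ratios of 838 (425 to 1940) and 739 (288 to 2710).

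More reads stood behind the next genes. AN7539 was at 1911, 2134 and 2117 CPM in the Δ*veA*-labelled libraries and at 11.3, 12.2 and 12.1 CPM in Δ*laeA*, a 173-fold difference (adjusted p = 6.02e-37, edgeR's quasi-likelihood test). It was the only one of the 8 largest with over 1000 CPM in a mutant, and the WT libraries lay between the mutants at 139, 161 and 165 CPM. AN8218 was at 368, 430.4 and 457 CPM in the Δ*veA*-labelled libraries and at 1.67, 1.29 and 1.61 CPM in Δ*laeA*. Here WT, at 208, 234 and 221 CPM, was far nearer to the Δ*veA*-labelled libraries, and the gene model overlaps that of AN8219, so reads on the shared part cannot be told apart. AN1567 and AN8609 differed by 329-fold and 265-fold, and AN0759 by 156-fold.

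On the Δ*laeA* side the largest differences were again in genes without a symbol. AN2923 was at 89.4, 97.4 and 85.0 CPM in Δ*laeA*, while the Δ*veA*-labelled libraries held 2 counts in all. The ratio was 3330, with a 95% exact interval of 921 to 27500. AN12477 was at 306, 303 and 311 CPM in Δ*laeA* and at 1.47, 1.87 and 1.49 CPM in the Δ*veA*-labelled libraries, a 193-fold difference. AN6404 was at 123, 121 and 125 CPM in Δ*laeA* and under 1 CPM in every Δ*veA*-labelled library, and WT exceeded both mutants at 681, 644 and 665 CPM. AN3518, AN3519 and AN3520, neighbours in 1 run, were 161-fold, 195-fold and 740-fold higher in Δ*laeA*.

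Some called genes had no count at all in a mutant. In the Δ*veA*-labelled libraries this held for 20 called genes, and in Δ*laeA* for 8. Most of them were low in the other mutant too: only 2 of the 20 and 1 of the 8 were there over 10 times the floor given below. Some of the 20 were under the floor itself, such as AN8250 at 0.0655 CPM in Δ*laeA*. AN7116 was at 37.5, 34.0 and 35.1 CPM in Δ*laeA* and had no count in any Δ*veA*-labelled library. With a floor of 3 counts per library (up to 0.154 CPM) it was at least 231-fold higher in Δ*laeA*, and AN8526, with 8.62, 8.95 and 9.20 CPM in Δ*laeA*, was at least 57.9-fold higher. WT had 39.4, 41.5 and 42.2 CPM of AN7116 but 0.13, 0.00 and 0.00 CPM of AN8526. On the other side AN12458 was at 5.83, 5.10 and 3.75 CPM in the Δ*veA*-labelled libraries with no count in Δ*laeA*. The other 7 genes were at less than 10 times the floor, and some of them under it.

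Of 15 genes of sexual development, 5 were called higher in Δ*laeA* (*MAT1*, *MAT2*, *ppgA*, *preA* and *esdC*), beside 11.6% of all genes tested, and 1 (*gprD*), beside 6.74%, was higher in the Δ*veA*-labelled libraries. The list median was -0.37, against 0.03 over all genes tested. At the adjusted p alone 9 members were higher in Δ*laeA* and 4 in the Δ*veA*-labelled libraries, beside 33.6% and 36.5% of all genes tested.

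*esdC*, a gene needed early in sexual development, was at 338, 332 and 357 CPM in Δ*laeA* and at 75.1, 69.0 and 67.6 CPM in the Δ*veA*-labelled libraries. The mutants did not overlap, with a 4.84-fold difference (adjusted p = 2.69e-28, edgeR's quasi-likelihood test), and WT lay above both at 1895, 1850 and 1853 CPM. *ppgA*, which encodes the pheromone precursor, was at 62.1, 58.6 and 63.2 CPM in Δ*laeA* and at 4.77, 5.86 and 6.11 CPM in the Δ*veA*-labelled libraries. WT had 59.7, 56.0 and 58.9 CPM of *ppgA* and overlapped Δ*laeA*, so the Δ*veA*-labelled libraries were the low ones.

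The mating-type genes had the same order. *MAT2*, of the HMG-box type, was at 14.8, 11.9 and 13.3 CPM in Δ*laeA* and at 1.36, 1.67 and 1.90 CPM in the Δ*veA*-labelled libraries, with WT at 14.2, 15.7 and 14.7 CPM. *MAT1*, of the alpha-domain type, was under 2 CPM in every mutant library, and its 57 counts in Δ*laeA* against 6 gave a ratio of 12.5 (5.39 to 35.4, exact 95% interval). The pheromone receptor gene *preA* was at 9.55, 8.42 and 9.90 CPM in Δ*laeA* and at 3.30, 2.53 and 1.80 CPM in the Δ*veA*-labelled libraries. The second receptor gene, *preB*, was not called, with a log2 difference of -0.38.

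*gprD* went the other way. This G protein-coupled receptor gene, known as a repressor of sexual development, was at 151, 146 and 146 CPM in the Δ*veA*-labelled libraries and at 21.0, 18.8 and 18.4 CPM in Δ*laeA*. The difference was 7.62-fold without overlap, and WT was lower still, at 7.89, 5.57 and 7.12 CPM. Summed over the marker genes of sexual tissue (*MAT1*, *MAT2*, *esdC* and *nsdD*), the level was 466 to 497 CPM in Δ*laeA*, 156 to 176 CPM in the Δ*veA*-labelled libraries and 1960 to 2015 CPM in WT, with none of the 4 markers at 0 in any group. Most of the sum was *esdC* alone in Δ*laeA* (342 CPM on average) and WT (1866 CPM). In the Δ*veA*-labelled libraries it was mostly *nsdD* (92.6 CPM) and *esdC* (70.6 CPM). Other markers first planned for this tissue were not summed. In bulk samples fewer cells of a type and less RNA per cell cannot be told apart.

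Of 6 central conidiation genes 1 was called between the mutants, beside 18.4% of all genes tested. At the adjusted p alone 3 central genes were higher in Δ*laeA* and 0 in the Δ*veA*-labelled libraries, beside 33.6% and 36.5% of all genes. The called gene was *wetA*, which acts in spore maturation, at 4.22, 6.57 and 5.17 CPM in Δ*laeA* and under 1 CPM in every Δ*veA*-labelled library. *brlA*, the activator of this pathway, was at 1.58 ± 0.67 CPM (SD, n = 3) in the Δ*veA*-labelled libraries and at 1.16 ± 0.36 CPM (SD, n = 3) in Δ*laeA*, and *abaA* at 1.11 and 0.98 CPM on average. Both were low in the mutants and neither difference passed the test. *vosA*, a velvet-family gene, had a log2 difference of -0.05 ± 0.11 (SE), of which the sign turned with library totals alone and without Δ*veA* replicate 2 or Δ*laeA* replicate 1.

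Upstream of *brlA*, 1 of 13 genes was called higher in the Δ*veA*-labelled libraries and 1 in Δ*laeA*, beside 6.74% and 11.6% of all genes tested. At the adjusted p alone 7 were higher in the Δ*veA*-labelled libraries and 5 in Δ*laeA*, beside 36.5% and 33.6% of all genes tested. *tmpA*, which encodes a membrane flavoprotein of conidiation signalling, was at 15.7, 12.9 and 11.8 CPM in the Δ*veA*-labelled libraries and at 1.74, 2.38 and 1.56 CPM in Δ*laeA*. Both mutants lay far below WT, which had 73.2, 78.5 and 74.7 CPM. *flbE* was called higher in Δ*laeA* by 2.03-fold, overlaps the model of *dph5*, and lost the call with library totals alone (log2 difference -0.96), without Δ*veA* replicate 3 (-0.98) and without Δ*laeA* replicate 2 (-0.94). None of the 9 genes for conidium wall, pigment and storage products was called by edgeR, beside 18.4% of all genes tested. Of these, 4 passed the adjusted and the unadjusted p, all higher in Δ*laeA*, beside 33.6% of all genes at the adjusted p. DESeq2 called 1, and edgeR also called 1 with RLE factors, no low-count filter, at least 10 counts in every library, the replicate block or the mutant libraries only, and without Δ*veA* replicate 1 or Δ*laeA* replicate 1. Conidiophore and conidium markers summed to 121 to 131 CPM in the Δ*veA*-labelled libraries, 147 to 155 CPM in Δ*laeA* and 196 to 208 CPM in WT, and none of the 11 was at 0. *treA* alone, which was not called, gave 87.7, 98.9 and 93.1 CPM of these on average, in the same order.

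Of 8 velvet, *laeA* and light receptor genes 2 were called, *veA* and *laeA* themselves, beside 18.4% of all genes tested. *velB*, the partner of VeA in the complex, was at 43.4 ± 1.4 CPM (SD, n = 3) in the Δ*veA*-labelled libraries and at 35.2 ± 1.1 CPM in Δ*laeA*. *kapA*, which encodes the importin of VeA, had a log2 difference of 0.54, and the light receptor genes *lreA*, *lreB* and *fphA* had -0.35, -0.58 and -0.22. These 5 differences passed the adjusted p (edgeR), as did 70.1% of all genes tested, and were under 2-fold.

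Cell wall remodelling genes were called evenly in both directions. Of 17 members, 4 were called higher in Δ*laeA* (*chiA1*, *agd3*, *bgt2*, *exg1*) and 4 higher in the Δ*veA*-labelled libraries (*btgE*, *eng2*, *gel2*, *sun1*), around a list median of -0.14. The shares over all genes tested were 11.6% and 6.74%. *chiA1*, a chitinase gene, was at 1051, 1005 and 1078 CPM in Δ*laeA* and at 21.9, 17.5 and 19.1 CPM in the Δ*veA*-labelled libraries. The 53.0-fold difference had a log2 value of -5.73 ± 0.07 (SE). WT, at 72.3, 62.2 and 61.2 CPM, lay between the mutants and far nearer to the Δ*veA*-labelled libraries, so that Δ*laeA* was the group apart.

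For *agd3* the Δ*veA*-labelled libraries were the group apart. This gene, named after the *A. fumigatus* deacetylase of the polysaccharide galactosaminogalactan, was at 80.4, 73.4 and 70.7 CPM in the Δ*veA*-labelled libraries, at 925, 929 and 937 CPM in Δ*laeA* and at 1512, 1293 and 1326 CPM in WT. Its neighbour *gtb3*, a glycosyltransferase gene, was at 53.2, 48.4 and 45.6 CPM, 362, 366 and 401 CPM, and 454, 437 and 433 CPM in the same order. Both genes were far lower in the Δ*veA*-labelled libraries than in the other groups, 12.4-fold and 7.64-fold below Δ*laeA*.

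The abundant *bgt2*, named after a glucosyltransferase of *A. fumigatus*, was at 9922, 10360 and 9727 CPM in Δ*laeA* and at 4681, 4415 and 4140 CPM in the Δ*veA*-labelled libraries. On the other side *btgE* was at 2995, 2717 and 2641 CPM in the Δ*veA*-labelled libraries and at 854, 839.7 and 881 CPM in Δ*laeA*, with WT at 404, 374 and 377 CPM. *eng2*, *gel2* and *sun1*, named after *A. fumigatus* genes for glucan-modifying enzymes and a SUN-family wall protein, were 2.39-fold, 2.18-fold and 2.02-fold higher in the Δ*veA*-labelled libraries. Of 10 chitin and glucan synthase genes none was called by edgeR or by DESeq2. At the adjusted and at the unadjusted p 6 were higher in Δ*laeA* and 2 in the Δ*veA*-labelled libraries. Over all genes tested the shares at the adjusted p were 33.6% and 36.5%.

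**Figure D2:**
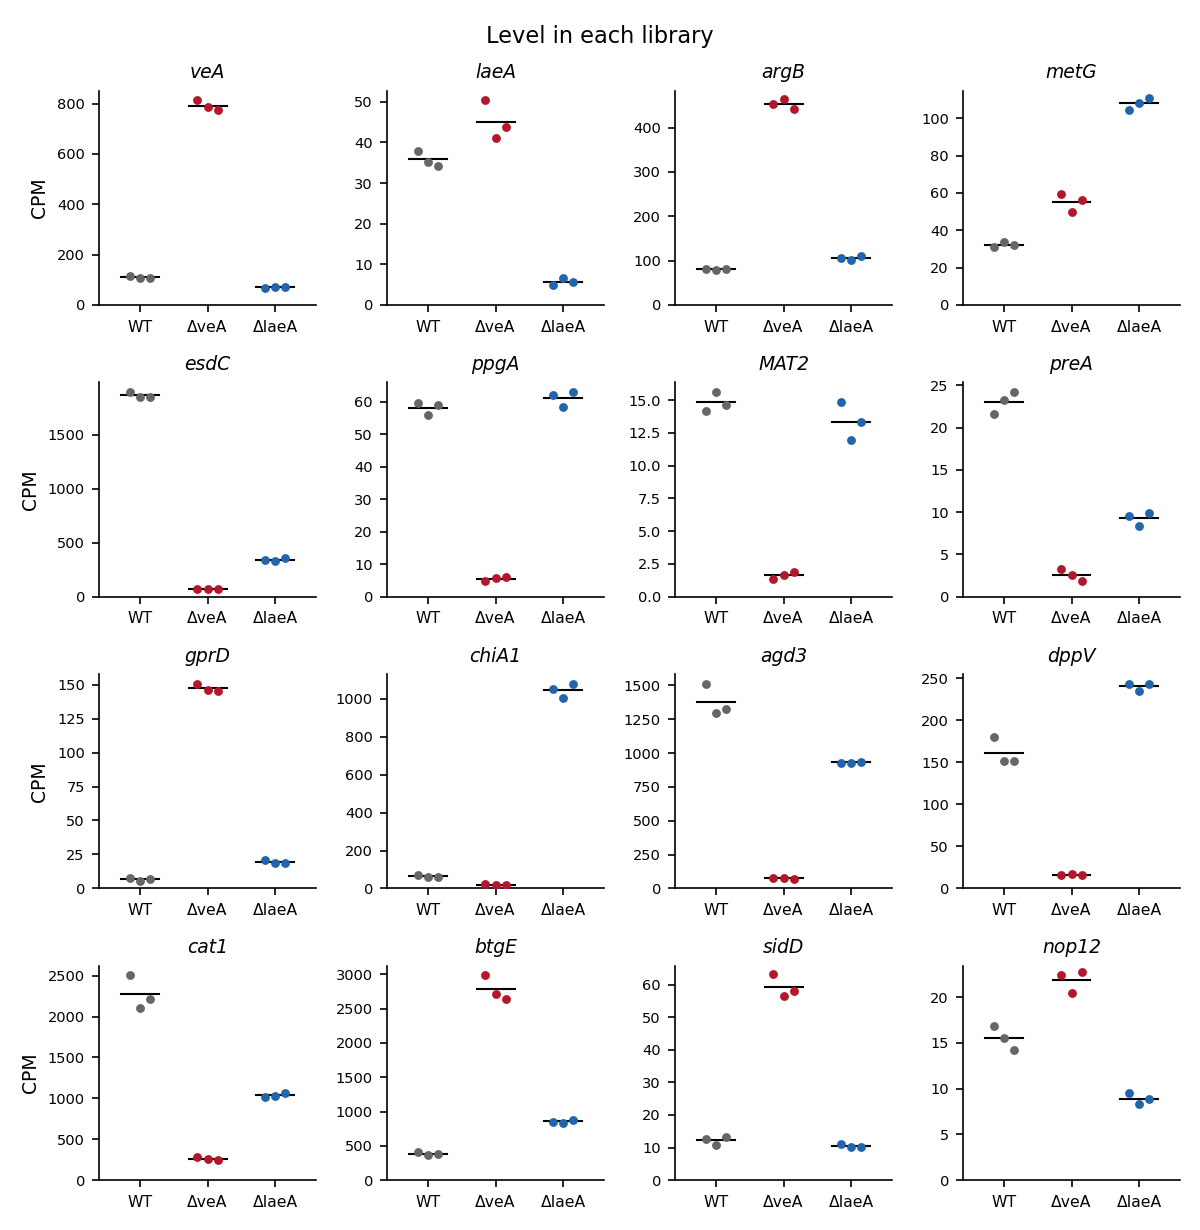
Level of 16 genes in each library (points, CPM from 0 on a linear axis) with the mean of each group (line), for WT (grey), the Δ*veA*-labelled libraries (red) and those labelled Δ*laeA* (blue). *veA* was highest under the Δ*veA* label, *chiA1* stood out in Δ*laeA*, and *agd3*, *ppgA* and *MAT2* were far lower in the Δ*veA*-labelled libraries than in both other groups.

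AN4190, AN2928 and AN2286 were among the most abundant called genes. AN4190 was at 3646, 3453 and 3423 CPM in the Δ*veA*-labelled libraries and at 1746, 1674 and 1802 CPM in Δ*laeA*, and its call at a log2 difference of 1.01 was lost without Δ*veA* replicate 1 (0.95) or Δ*laeA* replicate 2 (0.98), and also with RLE factors, DESeq2, no low-count filter, at least 10 counts in every library or the mutant libraries only (0.974 to 0.992). AN2928 was 2.29-fold higher in the same direction, and AN2286, at 8656, 8568 and 8466 CPM in Δ*laeA*, was 2.53-fold higher there. WT had 869, 848 and 858 CPM of AN4190, below all mutant libraries.

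Of 21 genes of secondary metabolism with a symbol that were tested, 6 were called higher in Δ*laeA* (beside 11.6% of all genes tested) and 0 in the Δ*veA*-labelled libraries (6.74%) by edgeR, and the list median was -0.51. At the adjusted p alone 11 were higher in Δ*laeA* and 1 (*fmaE*, log2 difference 0.97) in the Δ*veA*-labelled libraries, beside 33.6% and 36.5% of all genes. On that side 1 member was called with library totals alone and without Δ*veA* replicate 1 or Δ*laeA* replicate 1 or 3. With at least 10 counts in every library 3 members were called higher in Δ*laeA*.

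*fmaG*, named after a gene of fumagillin synthesis in *A. fumigatus*, was the only one of the 6 with a high level, at 64.8, 61.4 and 66.8 CPM in Δ*laeA* and 4.45, 3.84 and 3.801 CPM in the Δ*veA*-labelled libraries. The other 5 stayed under 10 CPM in every mutant library and were higher in every WT library. *nrps1*, a peptide synthetase gene, was at 8.93, 8.90 and 8.55 CPM in Δ*laeA* and at 1.18, 2.17 and 2.36 CPM in the Δ*veA*-labelled libraries, while WT had 276, 283 and 281 CPM. *tpcC*, named after a polyketide synthase gene of trypacidin synthesis in *A. fumigatus*, was at 4.15, 5.33 and 4.36 CPM in Δ*laeA* and at 1.06, 1.62 and 1.23 CPM in the Δ*veA*-labelled libraries. WT had 131, 132 and 124 CPM of *tpcC*, so the mutants differed within a narrow band far below it. *fma-AT* lost its call without Δ*laeA* replicate 2, with a log2 difference of -0.76 (adjusted p = 0.143, edgeR).

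The called siderophore genes lay on the opposite side. Siderophores are small iron chelators made by peptide synthetases, exported for uptake or kept in the cell for storage. Of 13 siderophore and iron genes, 5 were called higher in the Δ*veA*-labelled libraries (*sidD*, *sidH*, *sidI*, *sidJ*, *mirD*), beside 6.74% of all genes tested, and 0 in Δ*laeA*, beside 11.6%, and the list median was 0.76. *sidD*, whose *A. fumigatus* counterpart makes the exported siderophore, was at 63.1, 56.4 and 57.9 CPM in the Δ*veA*-labelled libraries and at 11.2, 10.04 and 10.2 CPM in Δ*laeA*. The 5.67-fold difference left no overlap, and WT, at 12.7, 10.9 and 13.2 CPM, lay near Δ*laeA*.

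*sidH*, whose *A. fumigatus* counterpart supplies a precursor of the exported siderophore, was at 15.6, 16.8 and 16.1 CPM in the Δ*veA*-labelled libraries and at 2.29, 4.09 and 2.42 CPM in Δ*laeA*. *sidJ*, named after a siderophore hydrolase gene of *A. fumigatus*, was at 29.1, 31.5 and 33.0 CPM against 12.96, 10.1 and 11.03 CPM. The rest of the list was not called and went both ways. *sidC*, for the siderophore kept in the cell, had a log2 difference of -0.66, the uptake gene *mirB* -0.79, and the iron regulators *sreA* and *hapX* -0.85 and -0.51, all past the adjusted p but under 2-fold. These 4 genes were higher in Δ*laeA* at that threshold, while *sit1* and *amcA*, at 0.85 and 0.76, were higher in the Δ*veA*-labelled libraries. At the adjusted p alone 7 of the 13 were higher in the Δ*veA*-labelled libraries and 4 in Δ*laeA*, beside 36.5% and 33.6% of all genes tested.

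Most genes of ribosome biogenesis were higher in the Δ*veA*-labelled libraries. Of 28 members, 9 were called higher in the Δ*veA*-labelled libraries (6.74% of all genes tested) and 0 in Δ*laeA* (11.6%), with a list median of 0.94, and 14 were called with library totals alone. At the adjusted p alone 26 were higher in the Δ*veA*-labelled libraries and 1, *nopA*, was higher in Δ*laeA*, beside 36.5% and 33.6% of all genes. Of the 28, 18 had a log2 difference from 0.8 to 1.2. *erb1*, *dbp9*, *lcp5* and *mak5* lost the call without Δ*laeA* replicate 2, Δ*veA* replicate 3 and, for the last pair, Δ*laeA* replicate 3 (log2 differences of 0.992, 0.997, 0.97 and 0.96).

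*grc3*, whose yeast counterpart acts in processing of ribosomal RNA, had the largest difference of the list. It was at 19.8, 18.03 and 21.5 CPM in the Δ*veA*-labelled libraries and at 4.15, 3.90 and 3.66 CPM in Δ*laeA*, and WT, at 21.0, 22.2 and 18.2 CPM, overlapped the Δ*veA*-labelled libraries. *nop12*, also a ribosomal RNA processing factor in yeast, was at 22.5, 20.5 and 22.7 CPM against 9.55, 8.33 and 8.88 CPM, with WT between them at 16.9, 15.5 and 14.2 CPM. The helicase genes *dbp9*, *mak5*, *drs1* and *rrp3*, named after yeast genes, were called with log2 differences of 1.06, 1.05, 1.02 and 1.03.

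All 7 listed ribosomal protein genes (median 0.55) and all 5 listed translation initiation factor genes (median 0.43) were higher in the Δ*veA*-labelled libraries at the adjusted p alone. This stands beside 36.5% of all genes tested. The same held at the unadjusted p, and 0 were called by edgeR or DESeq2. Genes of these families without a symbol were not in the lists. Of 23 amino acid biosynthesis genes 3 were called higher in the Δ*veA*-labelled libraries (*argB*, the marker of the construct, *cpa1* and *lysB*), beside 6.74% of all genes tested. At the adjusted p 20 were higher there and 3 in Δ*laeA*, beside 36.5% and 33.6% of all genes tested, with a list median of 0.59. *cpa1*, of arginine synthesis, was at 209 ± 11 CPM (SD, n = 3) in the Δ*veA*-labelled libraries and at 96.8 ± 10.7 CPM in Δ*laeA*. *lysB*, of lysine synthesis, was called at a 2.003-fold difference and fell under 2-fold in several alternatives, among them without Δ*veA* replicate 1 or Δ*laeA* replicate 1. Of 16 proteasome genes 0 were called by edgeR or DESeq2, with a list median of 0.24. The adjusted p was passed by 11 and the unadjusted p by 12, all higher in the Δ*veA*-labelled libraries, beside 36.5% of all genes at the adjusted p.

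**Figure D3:**
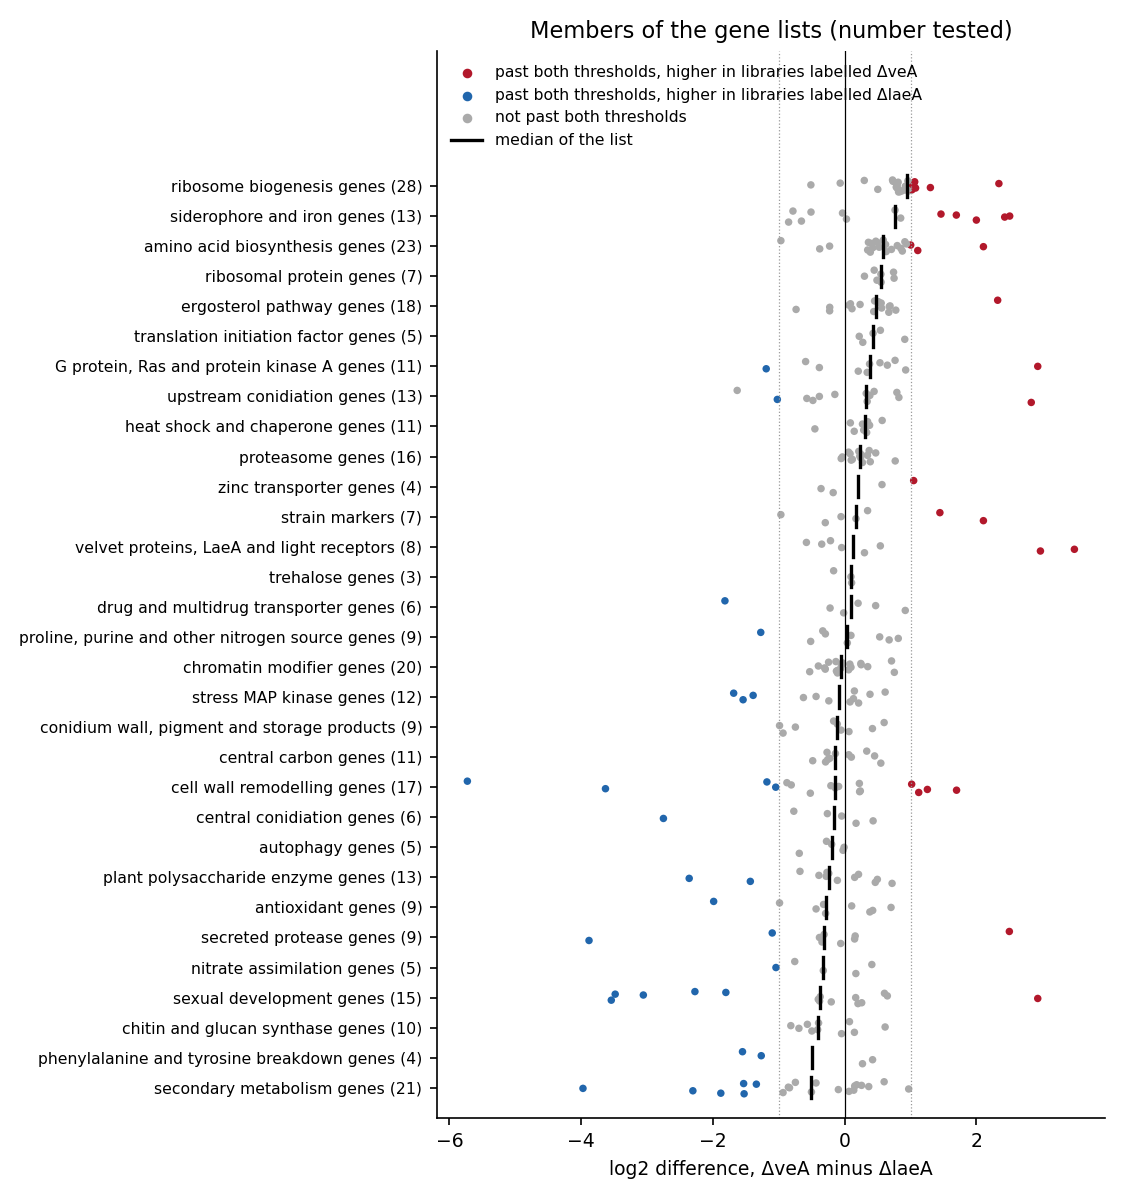
Log2 difference, Δ*veA* minus Δ*laeA*, of each tested member of 31 gene lists, ordered by the list median (black line), with dotted lines at the 2-fold limits. Ribosome biogenesis (median 0.94) stands at the top and secondary metabolism (median -0.51) at the bottom, and cell wall remodelling and sexual development spread widest.

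Of 12 stress MAP kinase genes 3 were called, all higher in Δ*laeA*, beside 11.6% of all genes tested. At the adjusted p alone 6 were higher there and 5 in the Δ*veA*-labelled libraries, beside 33.6% and 36.5% of all genes. The sensor histidine kinase gene *tcsB* was at 402, 395 and 399.8 CPM in Δ*laeA* and at 145, 129.8 and 135 CPM in the Δ*veA*-labelled libraries, and *tcsC*, of the same class, at 869, 833 and 853 CPM against 324, 327 and 324 CPM. WT overlapped neither mutant for *tcsC*, where it had 342, 354 and 353 CPM, close above the Δ*veA*-labelled libraries. *atfB*, a bZIP transcription factor gene, was 3.22-fold higher in Δ*laeA*. The kinase gene *sakA* itself had a log2 difference of -0.24, and the list median was -0.08.

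*cat1*, a catalase gene, was the called member of 9 antioxidant genes, beside 18.4% of all genes tested. It was at 1022, 1035 and 1062 CPM in Δ*laeA* and at 283, 258 and 245 CPM in the Δ*veA*-labelled libraries, a 3.97-fold difference, with WT above both at 2508, 2100.0 and 2209 CPM. *catA*, the catalase gene of conidia, was just under 2-fold at -0.99 and was called in several alternatives. Of 11 G protein, Ras and protein kinase A genes 1 was called in each direction (*gprD*, of the sexual list, and *gpaB*), beside 6.74% and 11.6% of all genes tested. At the adjusted p alone 8 were higher in the Δ*veA*-labelled libraries and 3 in Δ*laeA*, beside 36.5% and 33.6%, with a list median of 0.38. *gpaB*, for an alpha subunit, was at 71.9, 71.5 and 73.2 CPM in Δ*laeA* and at 33.0, 30.9 and 30.7 CPM in the Δ*veA*-labelled libraries.

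Of 9 secreted protease genes 3 were called, of 13 plant polysaccharide enzyme genes 2, and of each nitrogen list 1, beside 18.4% of all genes tested. The dipeptidyl peptidase gene *dppV* was at 243, 235 and 244 CPM in Δ*laeA* and at 16.5, 16.7 and 15.7 CPM in the Δ*veA*-labelled libraries, and the leucine aminopeptidase gene *lap1* was 2.14-fold higher in Δ*laeA*. *mep20* was called on the other side on 25 counts against 3, and lost the call without Δ*veA* replicate 1 (0.83), Δ*laeA* replicate 1 (2.05) or Δ*laeA* replicate 3 (1.96). The pectin methylesterase gene *pmeA* was 5.14-fold and the xanthine dehydrogenase gene *hxA* 2.42-fold higher in Δ*laeA*. *eglD*, of the same list as *pmeA*, was 2.7-fold higher in Δ*laeA*, at 2.66 CPM on average. The very abundant nitrite reductase gene *niiA* was at 10260, 10420 and 10620 CPM in Δ*laeA* and at 5118, 5004 and 5061 CPM in the Δ*veA*-labelled libraries. Its 2.06-fold difference fell under the limit with library totals alone (log2 -0.98), whereas the nitrate reductase gene *niaD* had -0.32 and the nitrate transporter gene *crnA* 0.41.

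Of 4 genes for breakdown of phenylalanine and tyrosine, 2 were called higher in Δ*laeA*, beside 11.6% of all genes tested. These were *hmgA*, for homogentisate dioxygenase, and *hmgX*, by 2.41-fold and 2.93-fold. *maiA* and *fahA*, for the steps after *hmgA*, did not pass the test. With AN1899 and AN1900 the first pair formed a run of 4 called genes. Of 18 ergosterol pathway genes 1, *ergS*, was called, 5.00-fold higher in the Δ*veA*-labelled libraries at under 5 CPM. This stands beside 6.74% of all genes tested. At the adjusted p 12 of the 18 were higher on that side and 3 in Δ*laeA*, beside 36.5% and 33.6% of all genes tested. Beside 18.4% of all genes tested, edgeR called 0 of 20 chromatin modifier genes, 11 central carbon genes, 11 heat shock and chaperone genes, 5 autophagy genes and 3 trehalose genes, and DESeq2 also called 0. At an unadjusted p under 0.05 and with no fold minimum, 9, 9, 10, 3 and 2 of them passed, in that order, beside 72.0% of all genes tested. At the adjusted p 9 heat shock and chaperone genes were higher in the Δ*veA*-labelled libraries and 1 in Δ*laeA*. For autophagy these numbers were 0 and 3, beside 36.5% and 33.6% of all genes tested.

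Some called genes lay beside each other in the genome. In the order of the RefSeq annotation, 189 runs of 2 or more neighbours were called higher in Δ*laeA*, with 535 genes in them (52.7% of the 1015 such genes with a place), and 85 runs were called higher in the Δ*veA*-labelled libraries, with 215 genes (35.4% of 608). Genes that were not tested did not end a run: 36 of the 189 runs held such genes, up to 9 in 1 run, and 10 of the 85, up to 2. How many runs a random order would give was not tested. Runs of 5 or more numbered 20 and 6, and the longest had 11 and 6 genes. Most of the genes in these runs had no symbol, and their products were not used here.

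The runs from AN3353 to AN3344 and from AN7893 to AN7902 each had 11 genes higher in Δ*laeA*. In the first, AN3347 was at 882, 885 and 892 CPM in Δ*laeA* and at 199.7, 193 and 202 CPM in the Δ*veA*-labelled libraries, with WT overlapping the latter. Its neighbour AN3345 was at 209, 202 and 209 CPM against 12.96, 13.7 and 13.5 CPM. AN3351, inside this run, rested on 28 counts against 15 and lost its call without Δ*veA* replicate 2 or 3 or Δ*laeA* replicate 1 or 2 (log2 differences of -0.83, -1.16, -1.21 and -0.97), which breaks that run. In the second run AN7895 reached 94.5, 97.1 and 98.8 CPM in Δ*laeA* against 5.63, 5.20 and 3.60 CPM, and the genes from AN7898 to AN7902 stayed under 3 CPM in every mutant library.

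The run of 10 genes from AN3528 to AN3517, which passes over 1 gene that was not tested, was low in the Δ*veA*-labelled libraries. Apart from AN3524, none of its genes exceeded 1.644 CPM there. Some were low in Δ*laeA* too, such as AN3523 at 0.646 CPM on average. AN3524 was at 568, 572 and 602 CPM in Δ*laeA* and at 5.86, 5.71 and 6.94 CPM in the Δ*veA*-labelled libraries, a 94.8-fold difference (adjusted p = 7.68e-37, edgeR's quasi-likelihood test), and WT had 108, 106 and 107 CPM. AN3520 was at 108, 112 and 96.03 CPM against 10 counts in all. The rest of the run had log2 differences from -2.15 to -7.86, so all 10 genes had the same order of the mutants.

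The run from AN2957 to AN2951 held 7 genes, with *gtb3* and *agd3* in its middle. All 7 were higher in Δ*laeA*, by log2 differences from -1.08 to -3.63. AN2951 was at 459, 431 and 463 CPM in Δ*laeA*, at 58.5, 66.5 and 61.5 CPM in the Δ*veA*-labelled libraries and at 566, 582 and 569 CPM in WT. In the run of 7 from AN1713 to AN1719, AN1714 was at 76.4, 68.5 and 75.1 CPM in Δ*laeA*, at 0.766, 1.46 and 1.03 CPM in the Δ*veA*-labelled libraries and at 295, 262 and 276 CPM in WT. AN1717 of that run had another order, at 196, 192 and 180.3 CPM in Δ*laeA* with WT and the Δ*veA*-labelled libraries between 54.1 and 60.5 CPM.

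On the Δ*veA* side 3 runs had 6 genes. The first, from AN10385 to AN3205, holds AN3206, and its other 5 genes stayed under 10 CPM in every library. The second runs from AN10761 to AN5943, in which AN5945 was at 173, 181 and 159 CPM in the Δ*veA*-labelled libraries and at 6.08, 5.38 and 5.92 CPM in Δ*laeA*, with WT between them at 23.3, 21.3 and 20.8 CPM. AN10761 was at 1815, 1918 and 1891 CPM against 652, 639 and 677 CPM, and there WT, at 2004, 2169 and 2164 CPM, lay above both. The third is the siderophore run of *sidJ*, *mirD*, AN6237, *sidD*, *sidH* and AN6234, whose log2 differences ran from 1.46 to 2.71. The 2 genes without a symbol in it, AN6237 and AN6234, were at 30.8 ± 2.4 and 19.7 ± 1.9 CPM (SD, n = 3) in the Δ*veA*-labelled libraries and at 7.31 ± 1.54 and 3.05 ± 0.43 CPM in Δ*laeA*.

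**Figure D4:**
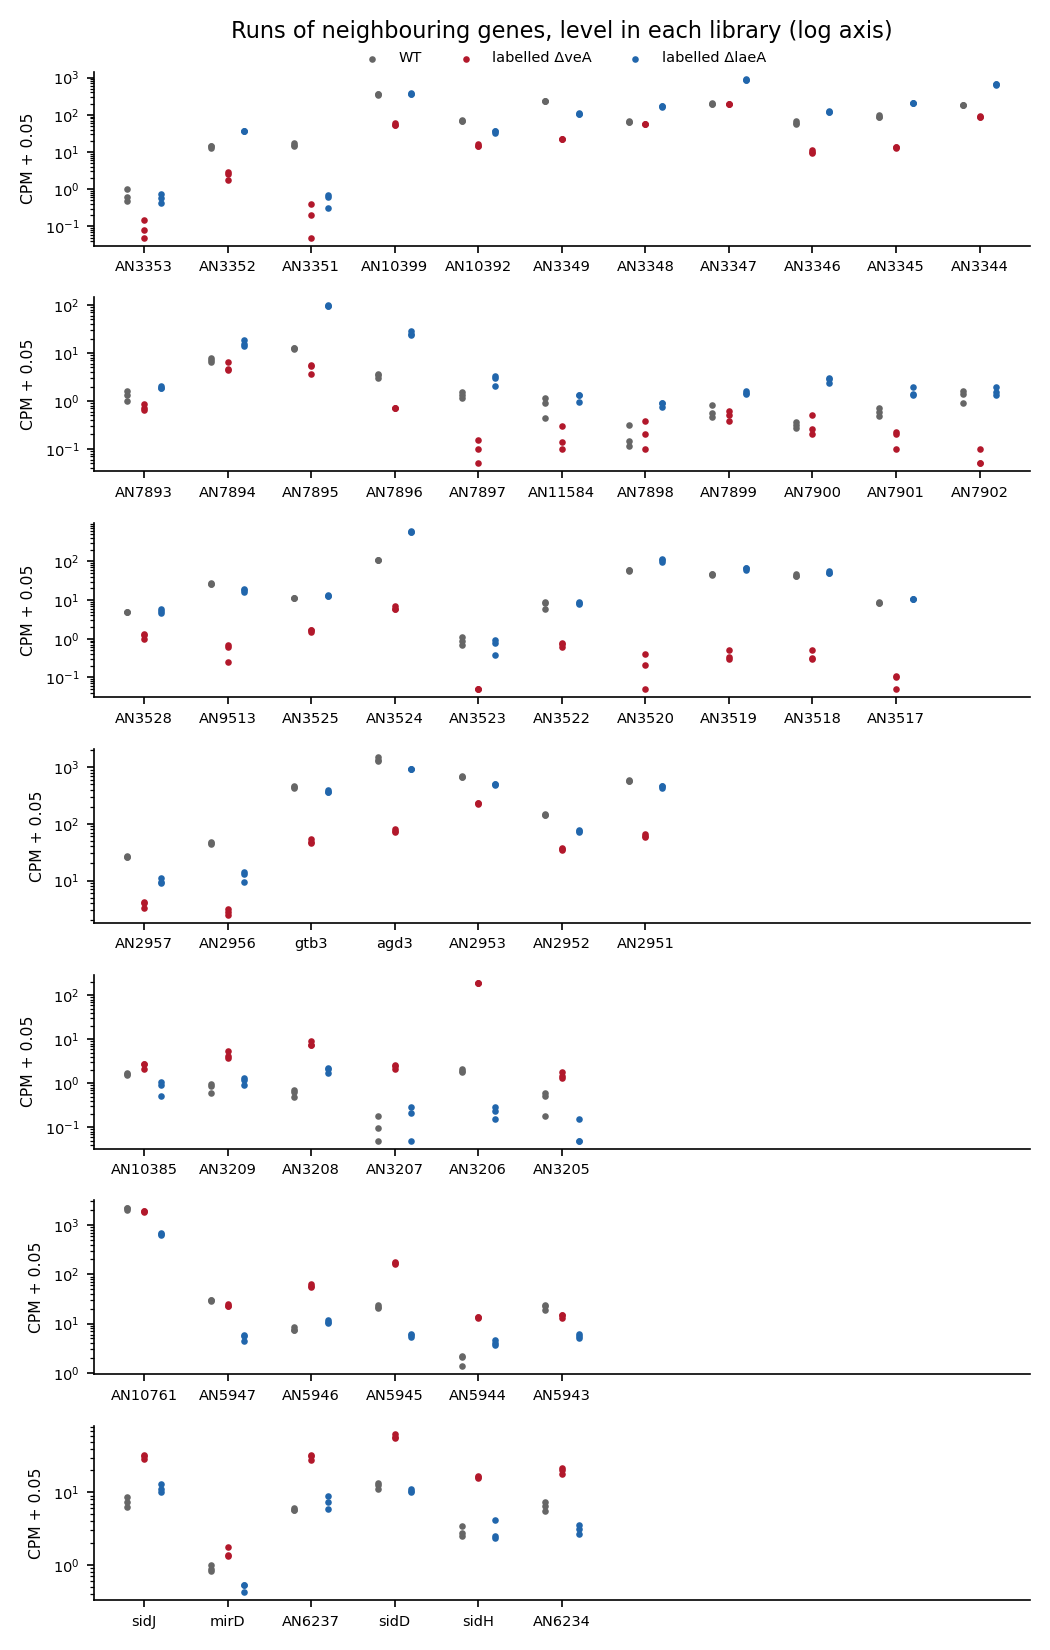
Level of each gene in each library (points, CPM plus 0.05 on a log axis) along 7 runs of neighbouring called genes, in annotation order, for WT (grey), the Δ*veA*-labelled libraries (red) and those labelled Δ*laeA* (blue). The upper 4 runs are higher in Δ*laeA* and the lower 3 in the Δ*veA*-labelled libraries, and the place of WT changes from run to run and within runs.

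WT was not part of the contrast, and its place was only described for each called gene. Where WT lay above or below all mutant libraries, both mutants stood apart from it. Of the 1101 genes called higher in Δ*laeA*, the WT libraries lay above all mutant libraries for 473 (43.0%), between the mutants for 269, below them all for 59, and overlapped Δ*laeA* for 177 and the Δ*veA*-labelled libraries for 104. WT was nearer to Δ*laeA* for 834 of them on a log scale with 0.1 CPM added. These include the 473 with WT above both mutants, where the higher mutant is always the nearer. With WT between the mutants it was nearer to Δ*laeA* for 175 of 269. Of the 639 genes called higher in the Δ*veA*-labelled libraries, WT lay above all mutant libraries for 105, between the mutants for 156, below them all for 149, and overlapped Δ*laeA* for 163 and the Δ*veA*-labelled libraries for 54. WT was nearer to Δ*laeA* for 410 of these. They include the 149 with WT below both mutants, where the lower mutant is always the nearer, and 95 of the 156 with WT between them. TMM factors were 1.14 to 1.15 in WT and 0.91 to 0.96 in the mutants, and with library totals alone 549 and 33 genes of the first class and 138 and 118 of the second lay above and below both mutants.

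Single genes show the kinds of order. AN6116 was at 111, 97.7 and 101 CPM in WT, 60.2, 61.2 and 58.2 CPM in Δ*laeA* and under 1 CPM in every Δ*veA*-labelled library. AN7232 was under 1 CPM in WT, at 0.992, 1.48 and 0.646 CPM in Δ*laeA* and at 52.2, 55.9 and 53.1 CPM in the Δ*veA*-labelled libraries. AN2387 was at 1.57, 1.42 and 2.39 CPM in WT and at 1.05, 1.05 and 1.67 CPM in Δ*laeA*, but at 119.7, 118 and 117 CPM in the Δ*veA*-labelled libraries. In the reverse case, AN8979 was at 93.0, 98.3 and 94.8 CPM in WT and at 95.02, 87.8 and 101 CPM in the Δ*veA*-labelled libraries, but at 6.26, 5.38 and 4.47 CPM in Δ*laeA*. AN8326 overlapped between WT and the Δ*veA*-labelled libraries near 10 CPM and was at 82.6, 82.3 and 77.1 CPM in Δ*laeA*.

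**Figure D5:**
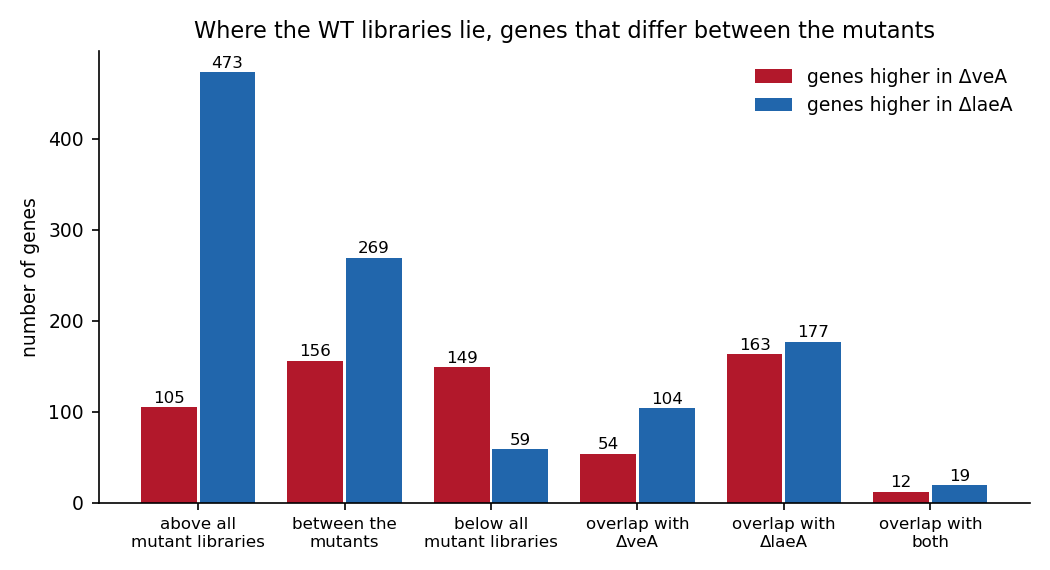
Number of called genes by the place of the 3 WT libraries relative to the 6 mutant libraries, for genes higher in the Δ*veA*-labelled libraries (red, 639) and higher in Δ*laeA* (blue, 1101). WT above all mutant libraries is the largest class of the blue genes, with 473, and a small one of the red genes, with 105.

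Apart from the genes described above, several regulators in the study's text differed by less than 2-fold between the mutants. This stands beside 18.4% of all genes tested that were called, so most genes were not. *nsdD*, a GATA factor of sexual development, was at 92.6 ± 6.6 CPM (SD, n = 3) in the Δ*veA*-labelled libraries and at 123 ± 3 CPM in Δ*laeA*. The pheromone pathway genes *steA* and *mpkB* had log2 differences of -0.20 and -0.37, and the conidiation genes *flbA*, *flbB*, *flbC* and *fluG* had 0.79, 0.45, 0.82 and -0.15. *areA*, the nitrogen regulator, had -0.76 and *pacC*, the pH regulator, -0.52. Just inside the 2-fold limit were AN6839, AN8629 and AN5079 at -1.0001, -1.0003 and -1.0006, and just outside it AN1597, AN1021 and AN1347 at -0.9987, -0.9985 and 0.9984.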

How the data were processed

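RNA-seq libraries of 3 strains were strand-specific, with 3 libraries per strain. The authors mapped reads with HISAT2 2.1, counted them per gene with featureCounts 1.5.0 and deposited the counts without normalization, while its strand option is not given in the sources used here. Antisense neighbours are therefore uncertain, and 2 of the 162 genes named by rule overlap another gene model. Paralogs sharing reads were not tested. Of 10988 rows, 31 repeat an identifier and were set apart (the row with most reads was kept), 264 had no read and 1475 were not tested.

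Counts were fitted in edgeR 4.0.16 (R 4.3.3, limma 3.58.1) in 1 model of all 9 libraries, with TMM scaling, filterByExpr and the robust quasi-likelihood test, checked on simulated data. SEs of log2 differences were taken from the test statistic. Replicates of 1 strain differed by more than sampling noise (chi-square per degree of freedom at least 2.89). Precision follows from 13396869 to 35755046 counts per library, and intervals and floors cover counting error only. Symbols and gene order came from RefSeq assembly ASM1142v1, while the study cites another record, and 10032 rows matched it and 779 had a symbol.

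Named were the targeted and marker genes, per direction the 8 largest called differences with at least 50 CPM and no overlap (with and without the need for a symbol), the 3 most abundant, up to 6 called members per list, the 3 longest runs, up to 5 genes without counts, genes of the study's text and 3 genes per place of WT. Genes beside *laeA*, the runs of 7 and 4 genes and list members that were not called were added after their values were seen. A first set of lists was replaced by 31 lists of RefSeq symbols. Members and lists were chosen with earlier results of these data known. Alternatives were DESeq2 1.42.0, RLE factors, library totals alone, other filters, glmTreat, no fold minimum, the mutant libraries only, a replicate block and each library left out. Figures used Python 3.11.15, numpy 2.4.6, pandas 2.3.3 and matplotlib 3.10.9.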

Additional observations from a re-analysis of the deposited data

How the results depend on the processing

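The count of 1740 called genes was 1139 with glmTreat against 2-fold (390 higher in the Δ*veA*-labelled libraries, 749 in Δ*laeA*) and 6646 with no fold minimum (3464 and 3182). Leaving out 1 library gave 1723 to 1772 genes in all, 608 to 652 and 1086 to 1130 by direction. The count was 1794 with DESeq2, 1744 with RLE factors, 1736 with library totals alone, 1845 without a filter, 1234 with at least 10 counts in every library and 1639 from the 6 mutant libraries alone. The share of called genes higher in the Δ*veA*-labelled libraries was 36.7%, and 52.1% with no fold minimum and 34.2% to 41.0% over the other settings.

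With the replicate number as a block 1726 genes were called, 1718 of them also called without it. Same-numbered libraries of the mutants share only a number: their deviations from the group means had correlations of -0.07, 0.04 and -0.02, and not every library correlated best with its own number.

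Of the named genes, *vosA*, which was not called, changed sign with library totals alone (0.016), without Δ*veA* replicate 2 (0.013) and without Δ*laeA* replicate 1 (0.058), in a range of -0.15 to 0.058 over the libraries left out. Among the named called genes 12 lost the call in at least 1 setting (glmTreat and no fold minimum were not tallied by gene), and the cause was not tested. Depth limits genes with a handful of counts in a mutant, where ratios have wide intervals.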
